A study of Mus musculus with 6 samples.

Results

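The 10 genes described here, Anln, Ect2, Racgap1, Kif23, Prc1, Cit, Aurkb, Birc5, Incenp and Cdca8, encode proteins that build the central spindle and divide the cytoplasm at the end of cell division. They were chosen by symbol from the 20893 genes of the deposited table, and all 10 were present and passed the filter on low values. Messenger RNA was sequenced from mouse hearts in 3 libraries with a germline knockout of Rbpms, an RNA-binding protein (labelled R1KO), and in 3 wildtype libraries. The labels give C57BL6/J for all 6 libraries and name no other allele, transgene or treatment. The title calls the hearts embryonic, whereas the design text calls them neonatal and the controls littermates, so the stage is not settled here. Nothing in the labels ties a library to its own animal, and the p-values therefore measure the spread between these libraries only.

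At anaphase, PRC1 crosslinks antiparallel microtubules into the spindle midzone, and centralspindlin, a complex of the kinesin KIF23 and RACGAP1, gathers there. Centralspindlin recruits the exchange factor ECT2, which activates RhoA at the cortex so that an actomyosin ring, scaffolded by anillin and citron kinase, draws the furrow inwards. The chromosomal passenger complex (the kinase AURKB with INCENP, BIRC5 and CDCA8) moves from centromeres to the midzone and regulates these steps. Around birth, rodent cardiomyocytes pass through a last division in which the nucleus divides and the cytoplasm does not, which leaves binucleated cells. Transcripts of these genes accumulate in G2 and mitosis in cycling cells of any type.

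Most promoters of this group carried the same short element close to the start of transcription. Genes that peak in G2 and mitosis are known to share a cell cycle element with the core TTTGAA, called the cell cycle genes homology region. In the RefSeq promoter table (GRCm38.p6; 250 bases before to 50 after each start), 8 of the 10 genes had a window, and Aurkb and Incenp had none. TTTGAA, read on either strand, was found in 6 of these 8, against 20.2% of all 27025 genes in the table. Within the last 100 bases of the window it was found in the same 6 of 8, against 5.72% of all genes. The stretches below show that element in capitals, with 20 bases before and 4 after it, 5′ to 3′ on the strand of the gene. They are shown because this is the element the windows of these genes share.
Kif23, chr9:61946788-61946817, reverse strand: ggcggccgctgattggcctgTTTGAAatgc
Racgap1, chr15:99651642-99651671, reverse strand: gtgattggctggtgcgtgatTTTGAAccgg
Prc1, chr7:80294426-80294455, forward strand: tggcaccgcctctggctcggTTTGAAttcc
Ect2, chr3:27153830-27153859, reverse strand: agagagagcgactggattttTTTGAAtcgg
Anln, chr9:22389169-22389198, reverse strand: cggggcgctgaaattcaaatTTTGAAcggc
Cdca8, chr4:124936895-124936924, reverse strand: gctaggctgtgcccgttgagTTTGAAttgg

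The first base of the element lay at +3 from the start site in Kif23, +6 in Racgap1 and +14 in Cdca8. In Anln it lay at +29, and at +22 the same element was read on the other strand. Prc1 and Ect2 each have 2 start sites in the table, which put the element at -5 and -30 in Prc1 and at +16 and +40 in Ect2. Ect2 held it a second time further upstream, at -114 and -138. CCAAT (either strand), another element frequent in such promoters, was found in 5 of the 8 windows, all of them among the 6 with TTTGAA, against 41.1% of all genes. TTTGAA and CCAAT stood together in those 5 of 8 windows and in 7.97% of all genes. Cit held neither of the pair, and Birc5 held only TTTAAA, which 14.9% of all genes hold. These matches describe letters in these windows and were not tied to binding of any factor or to the values below. Over the 6 libraries, the median Pearson correlation with the other genes of the group was 0.967 in Cit and 0.968 in Birc5, which lack TTTGAA. It was 0.927 to 0.965 in the 6 genes that hold it. Whether the element bears on the shared profile was not tested.

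The libraries did not form 2 even groups, and this bears on every value that follows. Knockout replicate 3 and wildtype replicate 1 came from females by their Xist and Y-linked values (Xist at 1763 and 1770), and the other 4 libraries from males (Xist at 2 to 14). With 1 female library per genotype, sex and the individual library cannot be told apart. Rbpms, the targeted gene, stood at 375, 340 and 507 in knockout and at 1182, 1176 and 1317 in wildtype libraries, so it fell in every library labelled knockout (log2 -1.61; limma, adjusted p = 0.0124). That test no longer passed when knockout replicate 1 or any 1 wildtype library was left out (limma, adjusted p = 0.0523 to 0.133). Which part of Rbpms was deleted is not given in the labels, so its value is a check of the labels only as far as the lost part is counted. Knockout replicate 3 also had the lowest summed value of epicardial markers (1013, against 1764 to 1974 in wildtype) and the highest of erythroid markers (3220, against 1891 to 1986 in wildtype). Not every marker followed these sums. Among the epicardial ones, Wt1 lay above every wildtype library there (245, against 191 to 225) and Tbx18 inside their range (286, against 271 to 322). Depth was 4163230 to 5805892 recovered reads per library. Heart identity was clear from the cardiomyocyte markers, which summed to 24793 to 28169 in knockout and 26412 to 28953 in wildtype libraries.

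All 10 genes were lower in knockout replicates 1 and 2 than in any wildtype library, and none of the 10 was so in knockout replicate 3. Of all tested genes, 18.0% lay below every wildtype library in both replicates 1 and 2, and 33.8% did in replicate 3. In all 6 libraries together no gene of the group passed the test. The values printed are the deposited ones, read numbers scaled by the authors with 1 factor per library. The fold changes are differences of log2(value + 1), knockout minus wildtype, tested by limma with Benjamini-Hochberg adjustment over all 14974 genes tested.

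**Figure D1:**
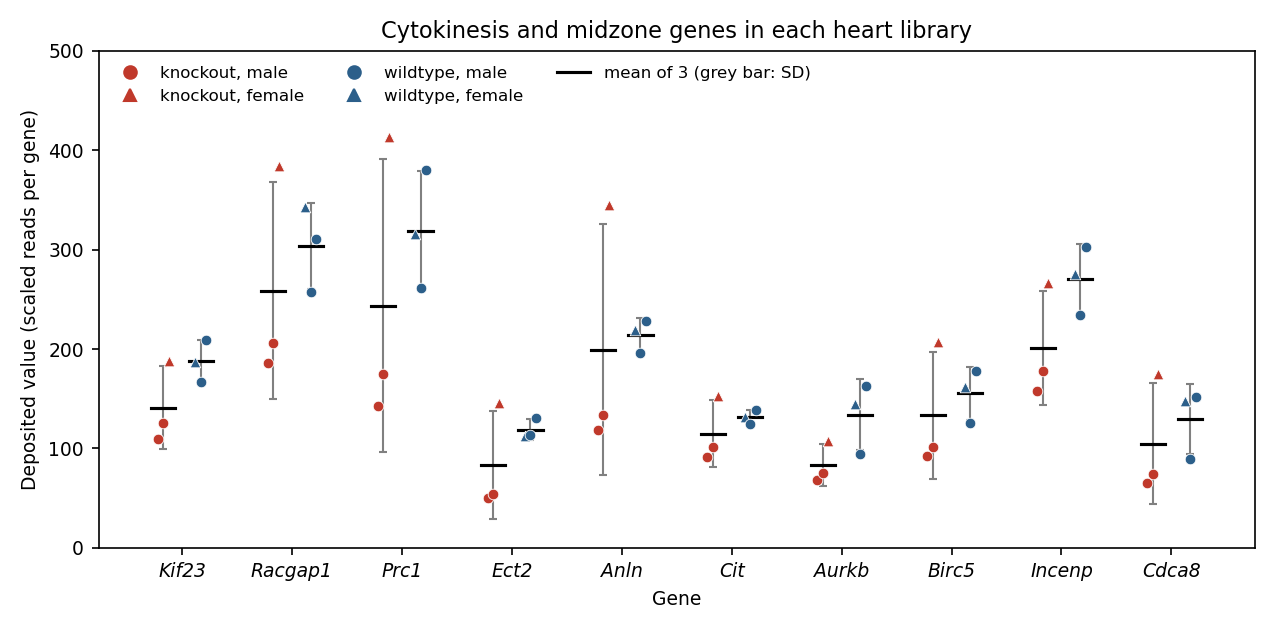
Deposited value (scaled reads per gene, linear axis from 0) of the 10 genes in each library, knockout in red on the left and wildtype in blue on the right of each pair, circles for male and triangles for female libraries, with the mean and SD of 3 libraries. In every gene the female knockout library (replicate 3) stands above both male knockout libraries, and both male knockout libraries stand below all wildtype libraries.

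The order below follows the roles of the proteins, and positions of whole genes are those of the deposited table on mm39. Kif23 (ENSMUSG00000032254, chr9:61823187-61854056, reverse strand), the motor subunit of centralspindlin, stood at 109, 126 and 188 in knockout libraries and at 187, 167 and 209 in wildtype libraries. The first 2 knockout libraries lay below every wildtype library, while the third lay inside their range. The means were 141 ± 41.6 in knockout and 188 ± 21 in wildtype (SD, n = 3 each), which gave log2 -0.44 with a 95% confidence interval of -0.89 to 0.00 (limma, adjusted p = 0.304). Racgap1 (ENSMUSG00000023015, chr15:99518377-99549537, reverse strand), its partner and a GTPase-activating protein, stood at 186, 206 and 384 in knockout libraries and at 343, 257 and 311 in wildtype libraries. Here the third knockout library was the highest of all 6. The log2 fold change was -0.30 (interval -0.97 to 0.38; limma, adjusted p = 0.653). Per base of exon, Racgap1 had 1.83 to 2.27 times the reads of Kif23 in knockout libraries and 1.66 to 2.05 times in wildtype libraries, so the ranges of this ratio overlapped.

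Prc1 (ENSMUSG00000038943, chr7:79944198-79966007, forward strand), the bundler of midzone microtubules, spread most widely among the knockout libraries in absolute terms. It stood at 143, 175 and 413 in knockout libraries and at 316, 261 and 380 in wildtype libraries. The means were 244 ± 148 in knockout and 319 ± 59.6 in wildtype (SD, n = 3 each; log2 -0.53, interval -1.50 to 0.44; limma, adjusted p = 0.562). Ect2 (ENSMUSG00000027699, chr3:27151371-27208027, reverse strand), the activator of RhoA, had the widest relative gap. It stood at 50, 54 and 146 in knockout libraries and at 112, 113 and 131 in wildtype libraries. Knockout replicates 1 and 2 held 0.421 and 0.455 of the wildtype mean, and replicate 3 held 1.23 times that mean. Its log2 fold change over all libraries was -0.68, with an interval of -1.60 to 0.24 (limma, adjusted p = 0.435).

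Of the furrow scaffolds, Anln (ENSMUSG00000036777, chr9:22243308-22300484, reverse strand) encodes anillin, which binds actin, myosin, septins and RhoA. It stood at 119, 134 and 345 in knockout libraries and at 219, 196 and 228 in wildtype libraries. Replicate 3 exceeded the wildtype mean 1.61-fold, more than in any other gene of the group, and the wildtype libraries lay close together. The means were 199 ± 126 in knockout and 214 ± 16.5 in wildtype (SD, n = 3 each; log2 -0.27, interval -1.24 to 0.69; limma, adjusted p = 0.785). Cit (ENSMUSG00000029516, chr5:115983337-116147006, forward strand), which encodes citron kinase and is also expressed in other forms in the nervous system, stood at 91, 101 and 153 in knockout libraries and at 132, 125 and 139 in wildtype libraries. It had the least negative fold change of the group (log2 -0.23, interval -0.66 to 0.19; limma, adjusted p = 0.578).

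The chromosomal passenger complex held the genes with the smallest p-values. Aurkb (ENSMUSG00000020897, chr11:68936473-68942490, forward strand), its kinase, stood at 68, 75 and 107 in knockout libraries and at 145, 94 and 163 in wildtype libraries. The groups overlapped only between knockout replicate 3 and wildtype replicate 2. The means were 83.3 ± 20.8 in knockout and 134 ± 35.8 in wildtype (SD, n = 3 each), and the log2 fold change of -0.67 had an interval of -1.22 to -0.12 (limma, unadjusted p = 0.0221, adjusted p = 0.214). Incenp (ENSMUSG00000024660, chr19:9849660-9876915, reverse strand), the scaffold of the complex, stood at 158, 178 and 266 in knockout libraries and at 275, 234 and 303 in wildtype libraries. Its log2 fold change was -0.46 (interval -0.90 to -0.01; limma, unadjusted p = 0.0447, adjusted p = 0.289). In these 2 genes alone of the 10 did the third knockout library lie below the wildtype mean.

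Birc5 (ENSMUSG00000017716, chr11:117740077-117746569, forward strand), which encodes survivin, and Cdca8 (ENSMUSG00000028873, chr4:124812258-124833104, reverse strand), which encodes borealin, target the complex to chromatin. Birc5 stood at 92, 101 and 207 in knockout libraries and at 162, 126 and 178 in wildtype libraries (log2 -0.30, interval -1.03 to 0.42; limma, adjusted p = 0.678). Cdca8 stood at 65, 74 and 175 in knockout libraries and at 148, 89 and 152 in wildtype libraries (log2 -0.41, interval -1.38 to 0.55; limma, adjusted p = 0.669). In both the third knockout library was the highest of the 6, unlike in Aurkb and Incenp. Per base of exon, Birc5 had 1.16, 1.17 and 1.67 times the reads of Aurkb in knockout libraries and 0.966, 1.17 and 0.948 times in wildtype libraries. Cdca8 had 0.538, 0.561 and 0.926 times the reads of Aurkb in knockout libraries and 0.581, 0.540 and 0.532 times in wildtype libraries. Knockout replicate 3 was the highest of the 6 in both ratios. In the ratio of Incenp to Aurkb it was not, with 1.58, 1.62 and 1.69 in knockout libraries and 1.29, 1.70 and 1.27 in wildtype libraries. The summed value of the 4 genes was 383, 428 and 755 in knockout libraries and 730, 543 and 796 in wildtype libraries, so replicate 3 lay within the wildtype range.

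As a group, 0 of the 10 genes changed by limma, where 0.434% of all tested genes were called lower and 0.942% were called in either direction. The same test gave 2 of the 10 at an unadjusted p under 0.05, against 16.4% of all tested genes, and voom on recovered reads called 0, against 0.488% of all tested genes. All 10 fold changes were below 0, as were 50.2% of those of all tested genes, and the median was -0.43, against -0.00 over all tested genes. These genes move together, so 10 equal signs are not 10 independent observations. In 0 of the 10 did the groups fail to overlap, where 10.9% of all tested genes had every knockout library below every wildtype library. The confidence intervals reached down to log2 -1.60 in Ect2 and up to 0.69 in Anln, and 8 of the 10 included 0. In whole hearts, fewer dividing cells and less RNA per dividing cell cannot be told apart.

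Within the knockout group the genes divided the libraries the same way. Knockout replicate 1 was lower than replicate 2 in 10 of 10 genes, and both were lower than replicate 3 in 10 of 10. These orders have no share over all genes beside them, and genes that move together restate 1 shared profile. Against the wildtype mean on the log2 scale, the genes ran from -1.23 to -0.53 in replicate 1, from -1.12 to -0.38 in replicate 2 and from -0.28 to 0.69 in replicate 3. Their medians were -0.81, -0.64 and 0.32, where the median of all tested genes was 0.00, 0.01 and 0.00. Replicate 3 exceeded the mean of the other 2 knockout libraries by 1.5-fold in Aurkb to 2.81-fold in Ect2. It lay above every wildtype library in 7 of the 10 genes (Racgap1, Prc1, Ect2, Anln, Cit, Birc5 and Cdca8), as it did in 35.0% of all tested genes. The full pattern, with replicates 1 and 2 below and replicate 3 above all wildtype libraries, was held by these same 7 of 10 and by 3.26% of all tested genes. The wildtype libraries differed less, and wildtype replicate 2 was the lowest of them in 9 of the 10 genes, again without a share over all genes.

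**Figure D2:**
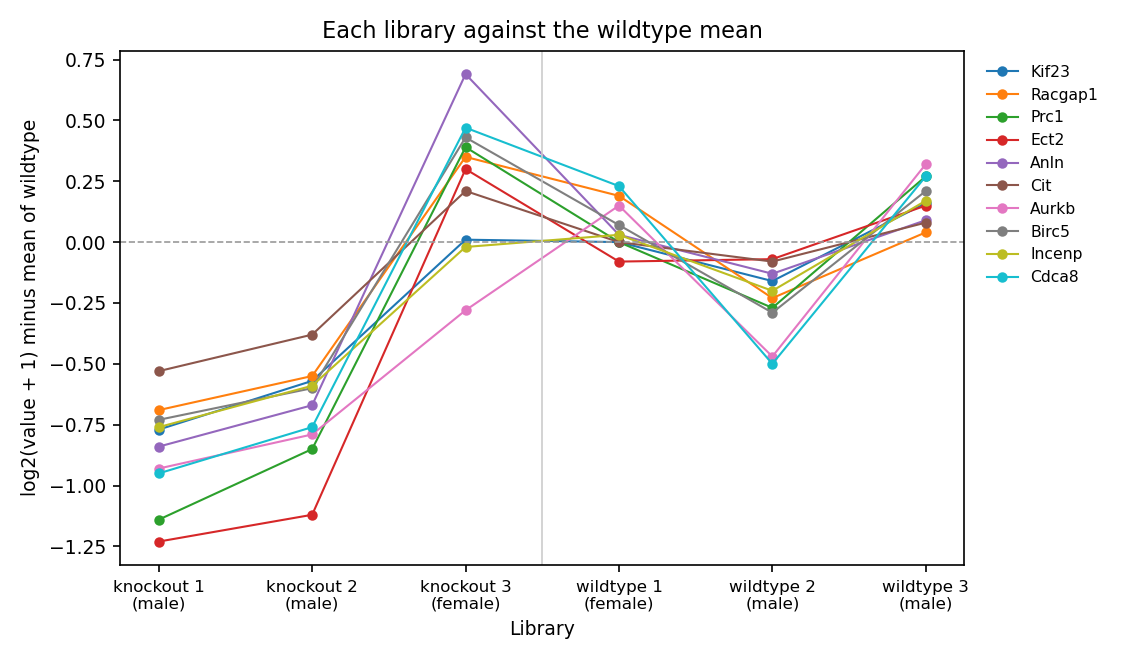
log2(value + 1) of each of the 10 genes in each library minus the mean of the 3 wildtype libraries, 1 line per gene, knockout libraries on the left. Knockout replicates 1 and 2 lie between -1.23 and -0.38, and knockout replicate 3 between -0.28 (Aurkb) and 0.69 (Anln).

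Without knockout replicate 3, 9 of the 10 genes fell (limma on the other 5 libraries, adjusted p under 0.05), where 2.6% of all tested genes were called lower and 4.86% in either direction. Ect2 fell most, with log2 -1.17 (interval -1.51 to -0.84; limma, adjusted p = 0.00126), to 0.444 of the wildtype level. Prc1 fell to 0.503 (log2 -0.99; adjusted p = 0.00601), Aurkb to 0.551 (log2 -0.86; adjusted p = 0.0353) and Anln to 0.592 (log2 -0.76; adjusted p = 0.00267). Kif23 and Racgap1 both fell, with log2 -0.67 and -0.62 (limma, adjusted p = 0.00951 and 0.00998). Incenp, Birc5 and Cdca8 fell, with log2 -0.68, -0.67 and -0.85 (limma, adjusted p = 0.00524, 0.0226 and 0.0464). Cit stood at log2 -0.46 and did not pass (limma, adjusted p = 0.0637). That set of libraries leaves out the 1 knockout library whose values lie highest, so it describes replicates 1 and 2 and not the genotype.

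In the male libraries alone, 2 of each genotype, 5 of the 10 genes fell (limma), where 0.875% of all tested genes were called lower and 1.71% in either direction. These were Ect2, at log2 -1.21 (interval -1.63 to -0.80; adjusted p = 0.00721), Anln at -0.74 (adjusted p = 0.0189), Incenp at -0.66 (0.0313), Prc1 at -0.99 (0.0318) and Kif23 at -0.67 (0.0479). Racgap1, Birc5, Aurkb, Cdca8 and Cit had negative fold changes between -0.79 and -0.46 that did not pass (limma, adjusted p = 0.0517 to 0.217). This fit also leaves out knockout replicate 3 and was added after library sex was read. It therefore describes knockout replicates 1 and 2 again and not the genotype. Between the female libraries, 1 of each genotype and therefore with no test, knockout exceeded wildtype in 8 of the 10 genes. That count has no share over all genes beside it. Anln was 1.58 times as high in the knockout female as in the wildtype female, and Aurkb was 0.738 times as high. A term for sex called 0 of the 10 genes (limma), where 1.49% of all tested genes were called. Kif23, Aurkb and Incenp had unadjusted p-values of 0.0239, 0.00992 and 0.0154 there (limma), with an adjusted p of 0.146 in Aurkb as the lowest.

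Knockout effects in the female and the male libraries were set against each other with an interaction term, chosen after knockout replicate 3 had been seen to be high in these genes. The female side is 1 library of each genotype, so all the spread in this fit comes from the male libraries and the female ones are assumed to vary like them. The differences restate the position of knockout replicate 3 and are no independent evidence of a difference between the sexes, so only their sizes are given. The difference, female minus male, was above 0 in all 10 genes and passed in 2 of them, where 0.488% of all tested genes passed in that direction and 1.22% in either. Anln had a difference of 1.39 on the log2 scale and Ect2 one of 1.59. In Aurkb the difference was 0.35.

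**Figure D3:**
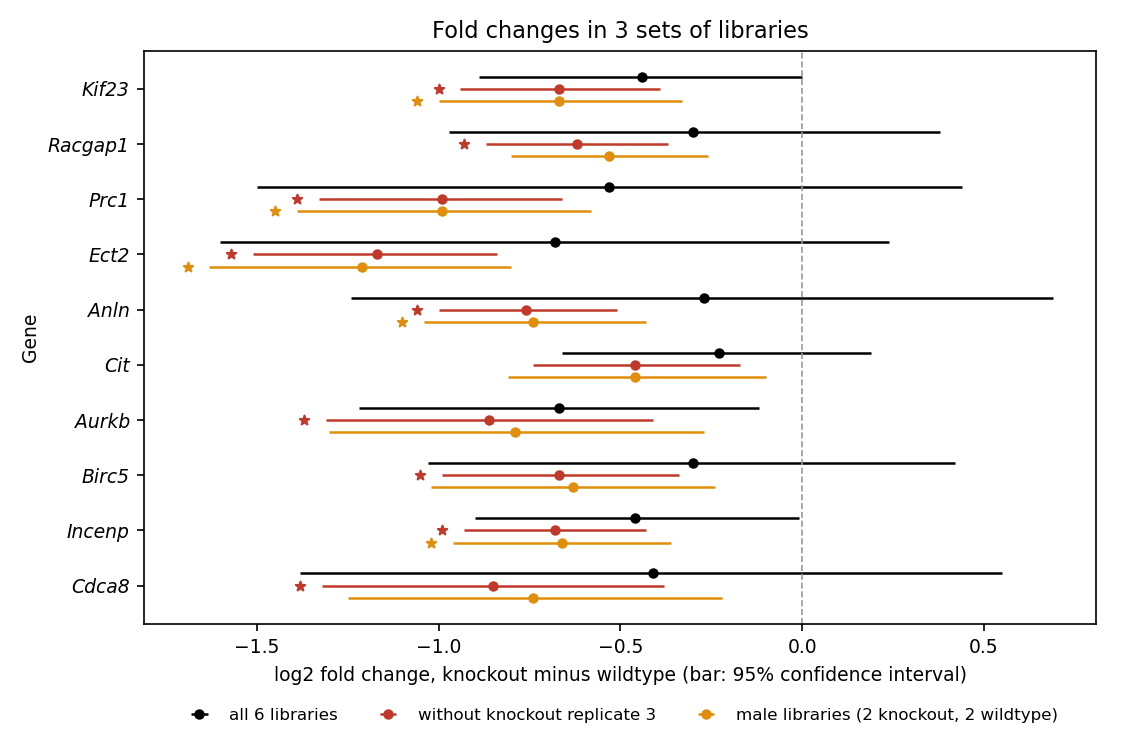
log2 fold change of each gene, knockout minus wildtype, with its 95% confidence interval, over all 6 libraries (black), without knockout replicate 3 (red) and in male libraries only (orange), stars marking an adjusted p under 0.05 by limma. No black interval is starred, against 9 red and 5 orange ones.

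The levels of the 10 genes, divided by the length of all annotated exons of each gene, spanned a range from Cit to Incenp. That length was 16417 bases in Cit, 3402 in Birc5 and 4329 in Incenp. Which transcript forms were present was not measured, so the order of the genes holds only for these lengths. On the scale of recovered reads per kilobase of exon and per 1000000 reads, Incenp was the highest at 9.38 ± 2.66 in knockout and 12.8 ± 1.55 in wildtype libraries (SD, n = 3 each). Cit was the lowest at 1.41 ± 0.406 in knockout and 1.66 ± 0.075 in wildtype libraries, below all the others by more than their spread in wildtype. In wildtype, Birc5 (9.37 ± 1.54), Aurkb (9.32 ± 2.44) and Racgap1 (8.82 ± 1.24) stood next to each other within their spread, as did Cdca8 (5.14 ± 1.38), Kif23 (4.87 ± 0.502), Anln (4.85 ± 0.34) and Ect2 (4.52 ± 0.378), with Prc1 between them at 7.96 ± 1.42. The 10 genes together made up 220, 247 and 482 reads per 1000000 recovered reads in knockout libraries and 420, 344 and 447 in wildtype libraries. A single gene rested on 52 to 485 recovered reads in a library.

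Over the 6 libraries the 10 genes rose and fell together. The Pearson correlation of log2 values ran over the 45 pairs from 0.675 (Anln with Aurkb) to 0.997 (Kif23 with Incenp), with a median of 0.945. Aurkb was the least tied to the others, with a median of 0.817. These values describe 6 libraries that share genotype, sex and depth differences, and knockout replicate 3 against the other knockout libraries weighs heavily in them. The genes outside the group most like its mean profile were Mtrex (r = 0.996), an RNA helicase of the nuclear exosome, Dbf4 (0.996), the activator of the replication kinase CDC7, Kif11 (0.995), the bipolar spindle kinesin, and Ccna2 (0.995), cyclin A2. Tpx2 (0.994), a spindle assembly factor, Ska3 (0.992), of the outer kinetochore, Armc10 (0.991) and Cep55 (0.99), a midbody protein of abscission, followed. Mtrex and Armc10 matched in shape at a far smaller scale, Mtrex running from 461 to 498 in knockout libraries and from 483 to 493 in wildtype libraries.

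Of 52 other genes of cytokinesis, all tested, 1 rose and 0 fell over all 6 libraries (limma), against 0.942% of all tested genes called. Myh9, the heavy chain of the nonmuscle myosin that drives the contractile ring and also serves in many cells that do not divide, stood at 1936, 2114 and 2121 in knockout libraries and at 1609, 1566 and 1691 in wildtype libraries. The groups did not overlap, and it rose by 0.34 on the log2 scale (limma, adjusted p = 0.0499), but passed in 4 of 17 alternatives (adjusted p from 0.0176 to 0.271). It was lost without knockout replicates 1 and 2 (limma, adjusted p = 0.13 and 0.0529) and without wildtype replicates 1, 2 and 3 (0.271, 0.144 and 0.186). Chmp4c, an abscission checkpoint subunit of the membrane-cutting ESCRT machinery, stood at 317, 292 and 315 in knockout libraries and at 226, 245 and 227 in wildtype libraries (log2 0.40; limma, adjusted p = 0.0571). Brca2, known for recombination repair and also placed at the midbody, stood at 114, 114 and 78 in knockout libraries and at 172, 188 and 169 in wildtype libraries (log2 -0.80; limma, adjusted p = 0.0571). In Brca2 knockout replicate 3 was the lowest library, the reverse of the midzone genes. Rock2, a RhoA-activated kinase, had a log2 fold change of 0.19, Stx2, a membrane fusion protein, of 0.24, and Vps4b, an ESCRT ATPase, of -0.19 (limma, adjusted p = 0.197, 0.212 and 0.212).

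By role, the 6 kinesins and kinases of the midzone had medians of -0.89, -0.79 and 0.38 in knockout replicates 1, 2 and 3 against the wildtype mean. The 20 genes of the contractile ring had medians of -0.03, 0.04 and 0.02, the 16 of abscission -0.02, -0.00 and 0.03, and the 10 of membrane traffic 0.01, 0.01 and -0.13. Without knockout replicate 3, 7 of the 52 fell and 2 rose (limma), where 2.6% of all tested genes were called lower. The 7 were the midzone genes Nusap1 (log2 -1.09), Kif4 (-1.0), Kif20b (-0.72) and Kif20a (-0.71), with Cep55 (-1.19), the formin Diaph3 (-0.79) and Brca2 (-0.62). Nusap1, Cep55 and Brca2 also fell in male libraries only (limma, adjusted p = 0.0103, 0.0267 and 0.04), a fit that rests on the same knockout libraries.

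Of 28 genes of S phase, G2 and mitosis 0 changed over all 6 libraries (limma and voom), against 0.942% of all tested genes called by limma. At an unadjusted p under 0.05 stood 6 of them by limma, against 16.4% of all tested genes, and 8 by voom, for which no share over all genes is given. Below 0 lay 27 of the 28 fold changes, against 50.2% of all, and their median was -0.47. Their medians in knockout replicates 1, 2 and 3 were -0.92, -0.60 and 0.21. Mki67, the marker of cycling cells, stood at 264, 349 and 606 in knockout libraries and at 560, 468 and 597 in wildtype libraries (log2 -0.49; limma, adjusted p = 0.469). Top2a, which untangles sister chromatids, stood at 214, 282 and 511 in knockout libraries and at 554, 427 and 539 in wildtype libraries (log2 -0.68; limma, adjusted p = 0.35). The smallest p belonged to Mybl2, a transcription factor that acts with the complex known to bind the element shown above, at 31, 49 and 32 in knockout libraries and 71, 66 and 72 in wildtype libraries (log2 -0.91; limma, adjusted p = 0.0859). Knockout replicate 3 was low in Mybl2, unlike in the 10 genes. Ncapd2, a condensin subunit, Ccnf, cyclin F, Mad2l1, of the spindle checkpoint, Melk, a mitotic kinase, and Foxm1, a transcription factor of G2 genes, had log2 fold changes of -0.31, -0.65, -0.49, -0.75 and -0.54 (limma, adjusted p = 0.163 to 0.294). Without knockout replicate 3, 16 of the 28 fell, against 2.6% of all tested genes, and in male libraries only 8 did, against 0.875% (limma). Both fits rest on the same knockout libraries.

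Of 8 partners of the passenger complex 0 changed, against 0.942% of all tested genes called by limma and 0.488% by voom. By limma 1 had an unadjusted p under 0.05, against 16.4% of all tested genes, and by voom 1, for which no share over all genes is given. Haspin, the histone kinase whose mark docks the complex at centromeres, stood at 22, 37 and 42 in knockout libraries and at 67, 40 and 53 in wildtype libraries (log2 -0.67; limma, adjusted p = 0.292). Bub1, which writes the other docking mark, stood at 37, 49 and 141 in knockout libraries and at 131, 108 and 122 in wildtype libraries (log2 -0.90; limma, adjusted p = 0.394). Bub1 fell without knockout replicate 3 (log2 -1.47; limma, adjusted p = 0.000686) and in male libraries only (log2 -1.41; adjusted p = 0.00586). Ttk, Sgo1, Cdk1 and Kat5 had log2 fold changes of -0.65, -0.42, -0.23 and 0.09 (limma, adjusted p = 0.404 to 0.703). The lists share genes: Bub1, Cdk1 and Ttk are also among the 28 genes above, and Plk1 among the 52 other cytokinesis genes.

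Among 15 genes tied to cardiomyocyte ploidy and binucleation, 1 fell and 0 rose (limma), against 0.434% of all tested genes called lower. E2f8, an atypical E2F repressor that promotes polyploidy in liver, stood at 60, 99 and 97 in knockout libraries and at 183, 172 and 168 in wildtype libraries. Every knockout library lay below every wildtype library, replicate 3 included, and E2f8 fell, with log2 -1.06 (interval -1.49 to -0.63; limma, adjusted p = 0.0472). E2f8 no longer passed once knockout replicate 1 (limma, adjusted p = 0.0873) or wildtype replicate 1, 2 or 3 (0.238, 0.145 and 0.223) was left out, and it passed in 10 of 17 alternatives. Its relative E2f7 stood at 75, 80 and 113 in knockout libraries and at 129, 102 and 119 in wildtype libraries (log2 -0.40; limma, adjusted p = 0.312). Pdlim5, a Z-disc protein, had a log2 fold change of 0.23, and the Hippo kinases Lats2 and Lats1 and the nonmuscle myosin Myh10 of 0.14, 0.17 and 0.08 (limma, adjusted p = 0.13 to 0.669).

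**Figure D4:**
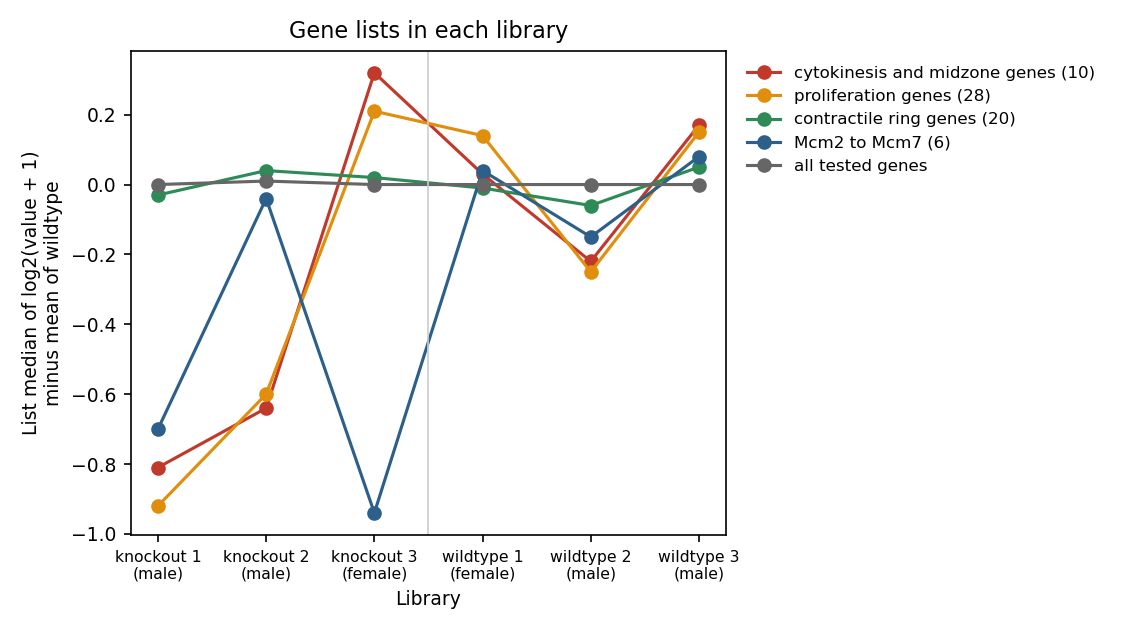
Median over the genes of a list of log2(value + 1) minus the wildtype mean, in each library, for the 10 cytokinesis and midzone genes, 28 proliferation genes, 20 contractile ring genes, Mcm2 to Mcm7 and all tested genes. The first 2 lists lie at 0.32 and 0.21 in knockout replicate 3, whereas Mcm2 to Mcm7 lie at -0.94.

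In knockout replicate 3 other cell type markers moved along with the 10 genes. Of the 15 erythroid markers 14 were in the table, and 8 of these lay above every wildtype library in that library. Of all tested genes 35.0% did so, but only 10 of the 14 markers were tested, so that share is no like background. These 8 include Hbb-y, Epb42 and Gata1, which did not pass the filter on low values. In replicates 1 and 2 the count was 5 and 4, with no share over all genes to set beside it. Their summed values were 1999, 2267 and 3220 in knockout libraries and 1919, 1891 and 1986 in wildtype libraries. Alas2, the haem synthesis enzyme of red cells, stood at 253, 324 and 1004 in knockout libraries and at 248, 226 and 336 in wildtype libraries. The erythroid regulators Klf1 and Gata1 were near 0 throughout, Klf1 at 3, 2 and 3 in knockout libraries and 4, 2 and 1 in wildtype libraries and Gata1 at 6, 0 and 9 in knockout libraries and 2, 2 and 0 in wildtype libraries, and no marker of the list was at 0 in every library. The part of these markers, and of the epicardial ones, in the values of the 10 genes was not tested. Leukocyte markers summed to 1652 to 1942 in knockout and 1460 to 1624 in wildtype libraries and endothelial markers to 9978 to 10733 in knockout and 9098 to 9464 in wildtype libraries. Of the 10 leukocyte markers, 6, 2 and 4 lay above every wildtype library in knockout replicates 1, 2 and 3. In replicate 3, 35.0% of all tested genes did so, and for replicates 1 and 2 that share is not given. Lyve1 weighed heavily in that sum, at 559, 379 and 545 in knockout libraries and 265, 321 and 251 in wildtype libraries. Csf1r stood at 237 in replicate 3, below its 300 to 318 in wildtype. Fibroblast markers summed to 12735 to 15511 in knockout and 13546 to 15776 in wildtype libraries, and smooth muscle markers to 4649 to 5060 in knockout and 5186 to 5669 in wildtype libraries.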

How the data were processed

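Hearts of 3 knockout and 3 wildtype libraries were sequenced as stranded, 72-base single-end mRNA libraries, per the labels' protocols. The submitters' processing notes name DESeq2 1.36.0, featureCounts 2.0.4, Picard 3.0.0, STAR 2.7.11a, Trimmomatic 0.39 and the build mm39, without saying what each did. No source used here says whether strand was used or duplicates were removed. The unit used is score, since the deposited whole numbers are not raw counts: gaps and doublings among values under 400 show that each library's reads were multiplied by 1 factor and rounded before the authors deposited them. Dividing by the estimated factors (0.8524 to 1.1798) recovered the reads. Exon lengths (GENCODE M21, GRCm38) matched all 10 genes. They count every annotated exon of a gene, overlaps once, whichever transcript forms are present. Levels and ratios per base of exon between genes therefore depend on the annotation.

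The test (limma 3.58.1, R 4.3.3) ran on log2(value + 1) for the 14974 of 20893 genes that reached 10 in 3 or more libraries, without covariates, with moderation that was robust and followed the intensity, and Benjamini-Hochberg adjustment over all tested genes at 0.05. The scale understates changes of low genes. Alternatives changed the scaling, the filter, the pseudocount, the moderation, the test (voom on recovered reads) and the libraries included, or added the replicate number or sex as a term. Scripts were tested on simulated data. One marker gene is not reported here. The members and lists were chosen with earlier results of these data known. Named were the 10 genes, up to 6 genes of smallest p per list with Mki67 and Top2a, and the 8 of most similar profile. Further genes (Mcm2 to Mcm7, those called in fewer libraries, single markers) were chosen after their values were seen. The fits on male libraries and with an interaction were added after library sex was read.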

Additional observations from a re-analysis of the deposited data

Results flagged for a closer look

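Of the genes of the group, Anln and Ect2 had the largest difference in knockout effect between the female pair and the male libraries (limma interaction term). That term was chosen after knockout replicate 3, the female knockout library, had been seen to be high, and all its spread comes from the male libraries, so it is no independent evidence of a difference between the sexes. The difference, female minus male, was 1.39 on the log2 scale in Anln and 1.59 in Ect2. Anln stood at 345 in the knockout female against 219 in the wildtype female, and at 119 and 134 in knockout males against 196 and 228 in wildtype males. Ect2 stood at 146 in the knockout female against 112 in the wildtype female, and at 50 and 54 in knockout males against 113 and 131 in wildtype males. All knockout males thus lay below the wildtype males in both genes, and the knockout female above the wildtype female. With 1 female library of each genotype, sex and library cannot be told apart.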

How the results depend on the processing

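Of 170 values of the 10 genes over 17 alternatives, 155 kept their direction and their side of the threshold, 14 passed the threshold in addition (9 without knockout replicate 3, and 5 in male libraries only, an alternative chosen after seeing the data), and 1 turned: Anln, whose fold change ran from -0.76 to 0.01 when each library was left out in turn. The number of the 10 genes called was 0, and 5 in male libraries only; leaving out each library in turn it ran from 0 to 9. Among the 52 other cytokinesis genes 1 was called, against 0 with equal totals, upper quartile scaling, a minimum of 30, a pseudocount of 0.5, no trend and robust moderation, voom and the replicate block, 2 with no filter, 2 when sex was a term, 3 among male libraries alone, and 0 to 9 with each library left out. Over all genes 141 were called, against 93 with upper quartile scaling, 218 with no filter, 24 without trend and robust moderation, 73 with voom, 23 with the replicate block, 223 when sex was a term, 256 among male libraries alone, and 0 to 727 with each library left out (6, 510 and 727 without knockout replicates 1, 2 and 3, and 3, 0 and 0 without wildtype replicates 1, 2 and 3). Libraries that share a number did not deviate together (correlations -0.169, -0.111 and -0.130). These deviations were taken within groups of 3 libraries, and the female libraries carry different numbers. The correlations therefore cannot exclude a shared litter or batch. The replicate block changed none of the 10 genes' calls, which stayed at 0, but ended that of Myh9 (adjusted p = 0.153) and E2f8 (0.119). The cause of these moves was not tested. Each of the 10 genes rested on 52 to 485 reads in a library, and 3 libraries a group limit the precision.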

Other observations

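Knockout replicate 3 combined high values of mitotic genes with low values of the replicative helicase, which loads onto origins before S phase. Mcm2 stood at 231, 382 and 153 in knockout libraries and at 406, 349 and 432 in wildtype libraries, and Mcm5 at 154, 289 and 120 in knockout libraries and at 301, 260 and 337 in wildtype libraries. Over Mcm2 to Mcm7 the library medians against the wildtype mean were -0.70, -0.04 and -0.94 in knockout replicates 1, 2 and 3, whereas the 10 cytokinesis and midzone genes had -0.81, -0.64 and 0.32. By these medians replicate 1 was low in both, replicate 2 in the cytokinesis genes alone and replicate 3 in the helicase alone. Not every helicase gene followed its median. Mcm7, at 320, 344 and 332 in knockout libraries and 415, 370 and 440 in wildtype libraries, was low in replicate 2 as well. Over all 6 libraries 0 of the 6 helicase genes changed (limma and voom), against 0.434% of all tested genes called lower by limma. At an unadjusted p under 0.05 stood 3 of them by limma, against 16.4% of all tested genes, and 6 by voom. No share over all genes is given for voom at that cutoff, so its count has no background here. All 6 fold changes were below 0, against 50.2%, with a median of -0.53.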
